A study of Homo sapiens with 3 samples.

Results

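Cytochrome P450 genes were examined in interferon-γ-treated HT-29 cells, a line grown from a human colon adenocarcinoma. The genes were taken by name alone, as every symbol of the form CYP, family number, subfamily letter and member number that an array probe set carried as its only symbol. This gave 40 genes read by 62 probe sets, out of 11963 genes and 19065 such probe sets on the array, and each gene was represented by its brightest probe set. The 3 arrays form 1 group, cultures exposed to interferon-γ (IFN-γ) at 200 U/ml during 24 h and called biological replicates by the series, so each value below is a level in treated cells of 1 cell line. No untreated culture was analysed here, and none of the values measures a response to IFN-γ.

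P450 enzymes are haem proteins that insert an oxygen atom into their substrates, with electrons passed on by NADPH-cytochrome P450 reductase in the endoplasmic reticulum or by ferredoxin in mitochondria. The lower-numbered families oxidise drugs, pollutants and other foreign compounds, mostly in liver and small intestine, while others make or break down fatty acids, sterols, bile acids, steroid hormones, vitamin D and retinoids. Inflammatory cytokines are known to lower many P450 genes in hepatocytes, a question that these arrays, without untreated cells, do not address.

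The CYP3A genes, which lie together on chromosome 7, include 2 of the genes detected below, and the bases upstream of 3 of their starts are shown because they differ in a known receptor element. Each line gives the 250 bases before the gene's start, 5′ to 3′ on the gene's strand, from RefSeq on GRCh38.p14. They are chr7:99679997-99680246 (minus strand) for CYP3A5, chr7:99784185-99784434 (minus strand) for CYP3A4 and chr7:99827763-99828012 (plus strand) for CYP3A43.
CYP3A5: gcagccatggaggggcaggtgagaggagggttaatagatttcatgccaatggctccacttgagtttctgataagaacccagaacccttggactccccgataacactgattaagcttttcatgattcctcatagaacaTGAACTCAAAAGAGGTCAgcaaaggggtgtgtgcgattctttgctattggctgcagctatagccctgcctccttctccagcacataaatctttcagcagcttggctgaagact
CYP3A4: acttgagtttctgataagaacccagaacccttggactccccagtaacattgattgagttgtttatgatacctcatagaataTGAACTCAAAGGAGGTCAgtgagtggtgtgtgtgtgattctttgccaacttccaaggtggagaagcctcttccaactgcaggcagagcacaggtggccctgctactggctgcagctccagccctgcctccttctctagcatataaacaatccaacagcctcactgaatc
CYP3A43: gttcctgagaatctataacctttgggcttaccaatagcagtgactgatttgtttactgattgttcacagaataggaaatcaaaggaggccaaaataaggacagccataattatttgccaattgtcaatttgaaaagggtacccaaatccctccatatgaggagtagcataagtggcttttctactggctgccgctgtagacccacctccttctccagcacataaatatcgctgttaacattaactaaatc

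Capitals mark a match to TGAACT, 6 bases of any kind and AGGTCA, the everted repeat that the xenobiotic receptor PXR is known to bind together with RXRA. AGGTCA alone is also part of the elements of other nuclear receptors. The match lay 113 to 96 bases upstream of the start in CYP3A5 and 169 to 152 bases upstream in CYP3A4, and no match was found in the window of CYP3A43. Counted from 1 at the 5′ end of the match, with CYP3A4 named first, the 18 bases of both genes differed by G11A. Searched on both strands, 3 of 35116 RefSeq windows of this length held such a match (0.00854%), and 2 of the 3 were these genes. For 28 of the 40 P450 genes the table held at least 1 start, 39 in all. The core GCGTG of elements bound by the aryl hydrocarbon receptor, searched on both strands, was found in 6 of these 39 windows, those of CYP1A1, CYP2J2, CYP2W1, CYP20A1, CYP2A7 and CYP11A1, and in 32.2% of all windows. None of these 6 genes was detected in the test described below, which called 3 of the 40 P450 genes and 42.9% of all genes. A difference between the 6 and the other P450 genes was not tested. CYP1B1 was not among the 28 genes searched. A match describes the letters and is no evidence of a used site.

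The names of the probe sets had to be re-paired with the values before any gene could be read. Under the names as deposited, pairs of probe sets for 1 gene had r = 0.19 over 4310 genes, and r = 0.60 under the order used here (a correlation across genes, which are not independent replicates). Of the 62 P450 probe sets, 56 lay in the largest displaced block, 4 in a block displaced by 1 row more and 2 in a block of low-numbered probe sets. The 4 were those of CYP1B1. In the block that holds them, probe sets correlated with other probe sets of the same 476 genes at r = 0.51, and at r = 0.18 or less when the block was placed 1 to 3 rows away. For the block of 56 the values were 0.55 and 0.04 at most (870 genes), and for the low-numbered block 0.33 and 0.09 at most (413 genes). The order was inferred from the data, and every gene value rests on it.

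A gene was called detected when it exceeded the arrays' background limit by limma's one-sided test, at a Benjamini-Hochberg adjusted p under 0.05 over all 11963 genes. Each array's limit was set at the 95th percentile of its signals for 72 genes known from other tissues only, such as muscle, retina and testis, with no P450 and no liver gene among them. In signal units this was 183, 209 and 176 for replicates 1, 2 and 3, against median probe set signals of 137, 144 and 141. By this rule 5129 genes were detected, 42.9% of all genes, and 1 of the 72 background genes. The last count is low by construction, because these genes set the limit, and it does not measure the rate of false calls. The arrays carried the epithelial identity of the line, with 8 of 9 epithelial markers detected, among them KRT18, KRT8 and KRT19, while CDH17 was not. Of markers of other cell types, 2 of 14 hepatocyte genes (SERPINA1 and APOH), 1 of 8 leukocyte genes (LYZ) and 0 of 7 stromal and endothelial genes were detected, and albumin (ALB), CD3D and PTPRC lay below the limit on all 3 arrays. By limma none of the 7 stromal genes passed at an unadjusted p under 0.05 either.

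Most P450 genes were not detected above the background limit in IFN-γ-treated HT-29 cells. This does not show that they were silent, since a gene expressed at a low level can lie under the limit. Of 40 genes, 3 were detected (7.5%, against 42.9% of all genes): CYP1B1, CYP3A5 and CYP3A43, each a member of the families that oxidise foreign compounds. The median log2 signal minus the limit was -1.72 over the P450 genes and 0.03 over all genes. Counting signals alone, with no test, 4 P450 genes exceeded the limit in all 3 cultures, the detected ones and CYP3A4, as did 45.6% of all genes. Another 4 were above it on 1 or 2 arrays, namely CYP1A2, CYP2A6, CYP27B1 and CYP27A1, and 32 on none. Of all 11963 genes, 1245 were above it on 1 or 2 arrays, a share close to that of the P450 genes, and 5257 on none. For 32 of the 40 genes the 95% confidence interval of limma's fit lay wholly below the limit, which was so for 39.8% of all genes. Array signals of different probe sets are not comparable as RNA levels, so genes are set against the limit and not against each other. The limit itself comes from probe sets of other genes, so the distance from it does not rank genes by RNA level.

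**Figure D1:**
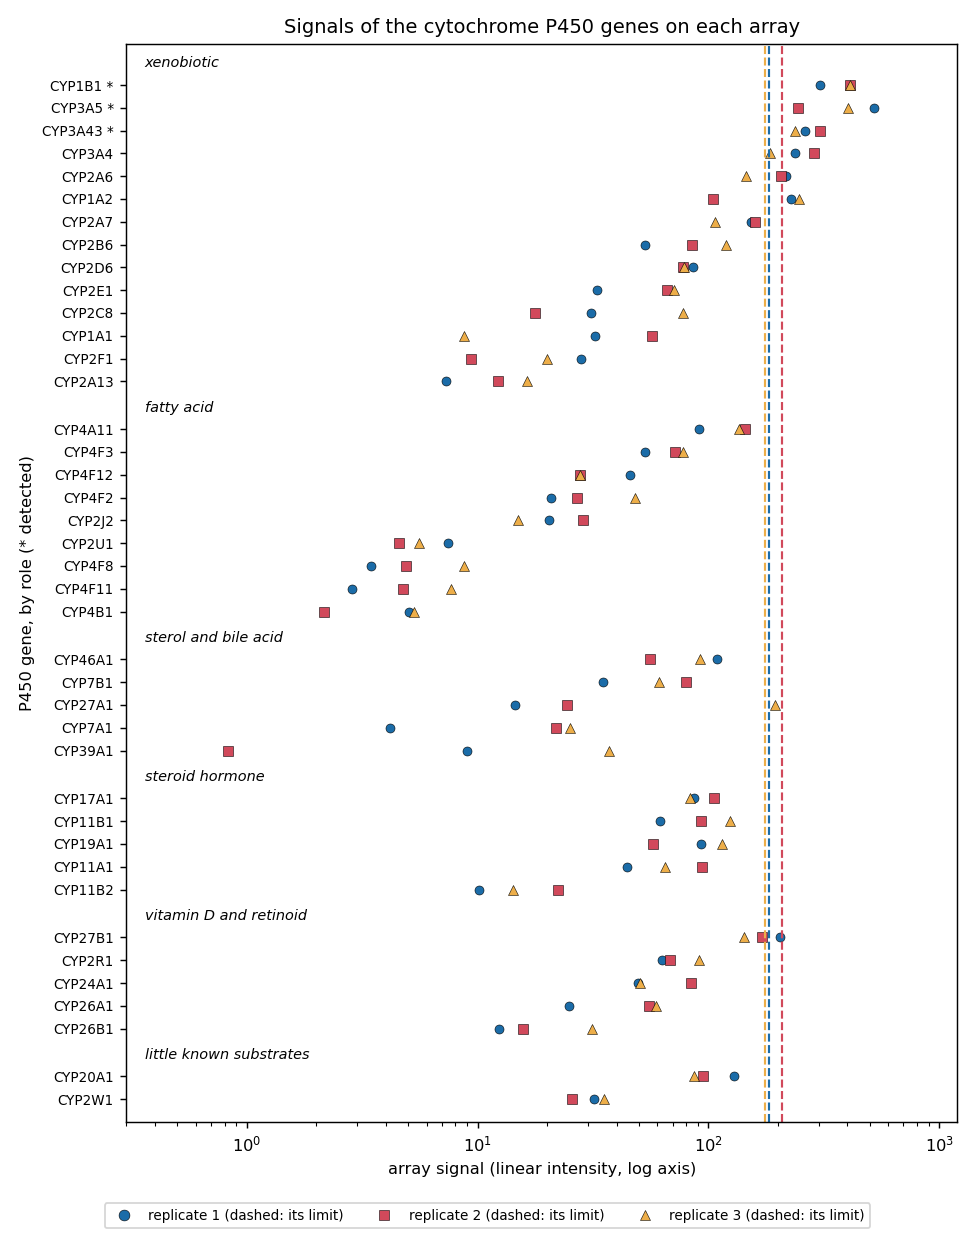
Signal of the brightest probe set of each of the 40 P450 genes on the 3 arrays (linear intensity, log axis), grouped by role, with each array's background limit as a dashed line in the array's colour. CYP1B1, CYP3A5, CYP3A43 and CYP3A4 lie above the limit of every array, and 32 genes lie below it on every array.

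CYP1B1, which oxidises polycyclic hydrocarbons and oestrogens and is a known target of the aryl hydrocarbon receptor, had signals of 306, 413 and 412 in replicates 1, 2 and 3. All 3 values stood above their limits, with replicate 1 the lowest. The mean was 377 ± 61.5 (SD, n = 3). By its mean log2 signal CYP1B1 lay at 1.98 times the limit, with a 95% interval of 1.45 to 2.69 (limma adjusted p = 0.00132). CYP1B1 has 4 probe sets, all with the suffix _s_at (probes that several transcripts share), and they disagreed in level. One of the others was above the limit on all 3 arrays (215, 242 and 282), one on replicate 3 only (174, 145 and 224), and one was far below it on each (18.5, 19.8 and 13.0). With the median over its probe sets CYP1B1 lay 0.42 log2 units over the limit and was not detected (limma adjusted p = 0.117).

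CYP3A5, a drug-oxidising enzyme of the gut, liver and kidney, had signals of 523, 243 and 403 in replicates 1, 2 and 3. Replicate 2 was the lowest and still above its limit of 209. The mean was 389.6 ± 140.1 (SD, n = 3). By its mean log2 signal CYP3A5 lay at 1.96 times the limit, with a 95% interval of 1.29 to 2.996 (limma adjusted p = 0.00766). Its 2 other probe sets carry no suffix. One had 351, 325 and 366, above the limit on every array, and the other had 244, 187 and 294, above it in replicates 1 and 3. CYP3A5 was the single P450 gene of 31 that remained detected when probe sets with the suffixes _x_at (cross-hybridising) or _s_at were left out, at 1.005 log2 units relative to the limit (limma adjusted p = 0.00136), where 35.0% of 8369 genes were detected. It was also the only one of 40 detected with the median over a gene's probe sets (1.01 log2 units, limma adjusted p = 0.00313), where 39.9% of all genes were.

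CYP3A43, a little-studied member of the same gene cluster, had 263, 304 and 237 in replicates 1, 2 and 3. Every value was above its limit, but the margin was small. The mean was 268 ± 33.7 (SD, n = 3). By its mean log2 signal CYP3A43 lay at 1.41 times the limit, with a 95% interval of 1.03 to 1.93 (limma adjusted p = 0.0421). The call was lost with 2 arrays: limma's adjusted p was 0.205, 0.104 and 0.0539 on leaving out replicates 1, 2 and 3 respectively. All 4 of its probe sets carry the _x_at suffix, so transcripts of related genes can contribute to the signal. One of the others had 99.5, 108 and 178, just above the limit in replicate 3 alone. The remaining ones, with 29.9, 24.7 and 61.4 and with 6.30, 18.3 and 21.9, were below it on each array.

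CYP3A4, the main drug-oxidising P450 of liver and small intestine, was above the limit on all arrays without passing the test. Its signals were 236, 286 and 185 in replicates 1, 2 and 3, with a mean of 236 ± 50.9 (SD, n = 3), and replicate 3 lay just over its limit of 176 (limma adjusted p = 0.217). This probe set is also an _x_at design. The single CYP3A4 probe set without a suffix had 29.3, 40.2 and 78.9, below the limit on each array. With it alone, and limits from unsuffixed probe sets, the gene lay at -1.93 log2 units. CYP3A7 was named only by a probe set that carries a second symbol, so it was not measured here.

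**Figure D2:**
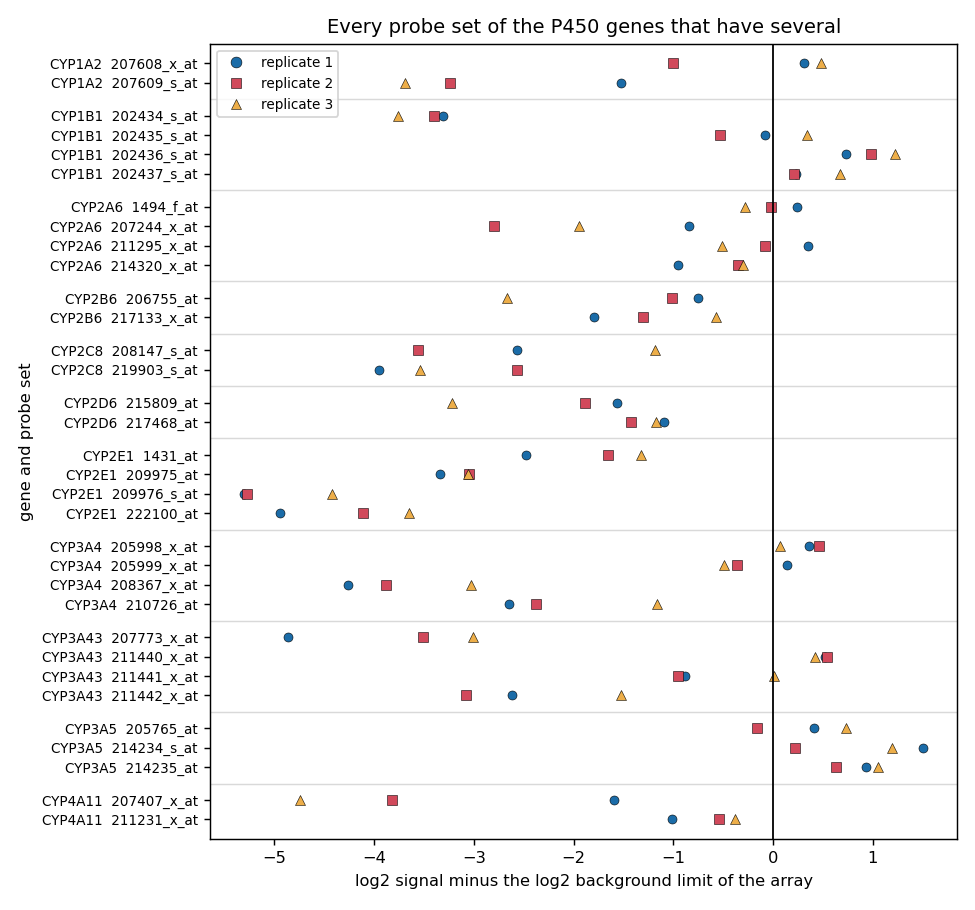
Every probe set of the 11 P450 genes that have several, as log2 signal minus the log2 background limit of each of the 3 arrays, with the limit at 0. The 3 probe sets of CYP3A5 lie together near or above the limit, whereas those of CYP1B1, CYP3A4 and CYP3A43 range from above the limit to more than 3 log2 units below it.

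Detection and the number of probe sets went together, and their relation was not tested. All P450 genes with several probe sets except CYP4A11 belong to the families that oxidise foreign compounds. Role and number of probe sets can therefore hardly be told apart here. All 3 detected genes were among the 11 P450 genes with several probe sets, where 54.8% of all such genes were detected, and 0 of the 29 P450 genes with a single probe set were detected, against 36.2% of all such genes. None of those 29 passed at an unadjusted p under 0.05 in limma, and none was above the limit on all 3 arrays. When every probe set was tested on its own against the same limits, 4 of 62 P450 probe sets were detected, against 37.3% of all 19065. They were the brightest one of CYP1B1, 2 of CYP3A5 and the brightest one of CYP3A43, the last at an adjusted p of 0.0498 in limma.

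Of the 14 measured genes of the families that oxidise foreign compounds, 3 were detected, against 42.9% of all genes. These families include the best known hepatic enzymes. The other 10 genes, left after setting aside the 3 and CYP3A4 by their own test results, were by that choice not detected. CYP1A2, the caffeine-oxidising enzyme of the liver, had 227, 104 and 246 in replicates 1, 2 and 3, above the limit in replicates 1 and 3 and well under it in replicate 2. CYP2A6, which oxidises nicotine, had 217, 205 and 145, above the limit in replicate 1 only. It was read from a probe set of the low-numbered block with the suffix _f_at, a design for a family of similar sequences, to which related transcripts can contribute. This suffix was not among those left out in the setting without suffixed probe sets. Its sequence relative CYP2A7 had 153, 159 and 107, below the limit throughout, on an _x_at design. CYP1A1, a target of the aryl hydrocarbon receptor like CYP1B1, had 32.2, 56.7 and 8.71 and thus lay below the limit on every array. By its mean log2 signal it lay at 13.3% of the limit, and the 95% interval reached 29.9%. CYP2D6, which oxidises many drugs, varied least between the cultures of all 40 genes, with 85.8, 77.7 and 78.2 and an SD of 0.08 log2 units. CYP2B6, CYP2C8, CYP2E1, CYP2F1 and CYP2A13 had mean signals from 11.95 to 85.4 and were below the limit on all arrays.

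P450 enzymes of fatty acid and eicosanoid metabolism were not detected in any of 9 measured cases, and none of them reached the limit on any array. By limma 0 of the 9 passed at an unadjusted p under 0.05. Over all genes 42.9% were detected and 5303 of 11963 passed at that unadjusted level, the background also for each of the roles that follow. CYP2J2, which makes epoxides of arachidonic acid, had 20.5, 28.7 and 14.999 in replicates 1, 2 and 3. CYP4A11, a fatty acid hydroxylase of liver and kidney, came nearest among them, with 91.0, 144 and 135 on an _x_at probe set, and the upper end of its 95% interval lay at 97.1% of the limit. The hydroxylases of the CYP4F group were below the limit on all arrays. CYP4F3, an enzyme that inactivates leukotriene B, had 53.2, 71.3 and 77.8, CYP4F12 had 45.5, 27.6 and 27.7 and CYP4F2 had 20.8, 27.0 and 48.0. CYP4F8 and CYP4F11, at mean signals of 5.68 and 5.08, and CYP2U1 and CYP4B1, at 5.84 and 4.18, lay at most at 6.305% of the limit by the upper ends of their 95% intervals.

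P450 enzymes of sterol and bile acid metabolism were not detected in any of 5 measured cases, and 0 passed limma at an unadjusted p under 0.05. CYP27A1, the mitochondrial sterol hydroxylase, differed sharply between cultures, with 14.6, 24.3 and 195 in replicates 1, 2 and 3. Replicate 3 alone was above its limit, and the SD of 1.98 log2 units compares with a median of 0.47 over all genes not detected. CYP39A1, a hydroxylase of oxysterols, had 9.02, 0.827 and 37.2, the largest spread of the 40 genes (SD 2.78 log2 units), with each value under the limit. CYP7A1, the rate-limiting enzyme of bile acid synthesis, had 4.18, 21.8 and 25.2. CYP7B1 (35.0, 80.3 and 61.0), an oxysterol hydroxylase, and CYP46A1 (109, 55.6 and 91.5), the cholesterol hydroxylase of brain, were also below the limit on all arrays. CYP51A1, the demethylase of cholesterol synthesis, was carried only by probe sets with a second symbol and was not measured here.

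Steroid hormone enzymes likewise did not pass the limit, with 0 of 5 measured genes detected and 0 at an unadjusted p under 0.05 by limma. CYP19A1, the aromatase that makes oestrogens, had 92.7, 57.6 and 114, and CYP17A1, a hydroxylase and lyase of adrenal and gonad, had 86.5, 106 and 83.4 in replicates 1, 2 and 3. CYP11A1, which cleaves the side chain of cholesterol, had 44.5, 93.4 and 64.8. The adrenal enzymes CYP11B1 and CYP11B2 had means of 92.8 ± 31.3 and 15.6 ± 6.20 (SD, n = 3 each). All 5 were below the limit in every culture.

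Of the enzymes of vitamin D and retinoid metabolism, CYP27B1 came nearest to the limit and none of 5 was detected. CYP27B1, which makes the active form of vitamin D, had 205, 171 and 142 in replicates 1, 2 and 3, above the limit in replicate 1 only. By its mean log2 signal it lay at 90.4% of the limit, and the 95% interval reached 131%. A level slightly over the limit was thus not separable from background with 3 arrays. CYP24A1, which degrades vitamin D, had 49.7, 83.9 and 50.6, and CYP2R1, an activating hydroxylase of the liver, had 63.1, 68.1 and 91.2. The retinoic acid hydroxylases CYP26A1 (24.8, 55.5 and 59.4) and CYP26B1 (12.3, 15.8 and 31.3) were below the limit on all arrays. By limma 0 of the 5 passed at an unadjusted p under 0.05.

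Neither of the 2 measured P450 genes with little known substrates was detected, nor did either pass limma at an unadjusted p under 0.05. CYP2W1, an enzyme described in colorectal tumours, had 32.0, 25.7 and 35.4 in replicates 1, 2 and 3, and its 95% interval reached 28.6% of the limit. CYP20A1 had 129, 94.8 and 86.6. CYP2S1, an epithelial P450, was not measured here. PTGIS and TBXAS1, which are P450 enzymes of prostaglandin and thromboxane synthesis under other names, had means of 99.6 ± 36.8 and 63.9 ± 12.4 (SD, n = 3 each), and neither was detected (limma adjusted p = 1 for both).

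Genes that serve P450 enzymes were mostly detected in the same cultures. All 7 measured electron donors and binding partners passed, against 42.9% of all genes. POR, the reductase that feeds electrons to P450s of the endoplasmic reticulum, had 311, 582 and 256 in replicates 1, 2 and 3, above the limit in each (limma adjusted p = 0.00493). FDX1, the ferredoxin that serves mitochondrial P450s, had 1618, 1492 and 1051 (adjusted p = 7.8e-07), while none of the measured mitochondrial P450s, CYP11A1, CYP11B1, CYP11B2, CYP24A1, CYP27A1 and CYP27B1, was detected. CYB5A, the cytochrome b5 of the endoplasmic reticulum, had a mean of 2781 ± 286 (SD, n = 3), and its reductase CYB5R3 had 1569 ± 269.5 (SD, n = 3). PGRMC2, the partner with the largest p, had 347 ± 98.6 (SD, n = 3), and its limma adjusted p of 0.0123 became 0.104 on leaving out replicate 1 and 0.0536 on leaving out replicate 3. Without suffixed probe sets 3 of 5 of these genes were detected, against 35.0% of all genes.

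Haem synthesis, which supplies the P450 cofactor, had 5 of 7 measured enzymes detected, against 42.9% of all genes. ALAS1, the rate-limiting step outside red blood cells, had 429, 566 and 479.5 in replicates 1, 2 and 3, above the limit in each (limma adjusted p = 8.5e-05). UROD had a mean of 794 ± 106 and CPOX one of 402 ± 119 (SD, n = 3 each). PPOX (239 ± 33.9) and ALAD (223 ± 35.9; SD, n = 3 each) did not pass, at adjusted p of 0.170 and 0.383 in limma. FECH and UROS, which insert the iron and close the ring, lost their calls on leaving out replicate 1 (limma adjusted p = 0.110 and 0.191) or replicate 2 (0.0518 and 0.0582). Without suffixed probe sets 2 of 4 were detected, against 35.0% of all genes.

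Among regulators of P450 genes 10 of 17 measured were detected, and 8 of 14 without suffixed probe sets, against 42.9% and 35.0% of all genes. AHR, the aryl hydrocarbon receptor, had 328, 239.9 and 587 in replicates 1, 2 and 3, above the limit in each with replicate 3 the highest (limma adjusted p = 0.0147), and this p became 0.0831 on leaving out replicate 3. Its partner ARNT, at 98.99, 114 and 61.1, was below the limit on every array. RXRA, the common partner of nuclear receptors, had a mean of 1008 ± 129.9 (SD, n = 3), and SREBF2, the sterol-sensing factor, had 496 ± 103 (SD, n = 3), both detected. NFE2L2, which drives antioxidant genes, had 2485 ± 973 and the nuclear receptor ESRRA had 929 ± 253 (SD, n = 3 each), also detected. VDR, the vitamin D receptor that controls CYP24A1, had 215, 287 and 218, above the limit on all arrays but not past the test (limma adjusted p = 0.161). The xenobiotic receptor CAR (NR1I3) lay below the limit at 101.4 ± 33.1 (SD, n = 3; adjusted p = 1), and NR1I2, HNF4A and AHRR were not measured here.

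Conjugating and related enzymes that act on P450 products were detected for 11 of 23 measured genes, where 42.9% of all genes were. Without suffixed probe sets the count was 5 of 16, where 35.0% of all genes were, so the share lay on the other side of that of all genes. NQO1, a quinone reductase, had a mean of 5291 ± 394, GSTP1 had 5160 ± 942 and GSTK1, both glutathione transferases, had 2829 ± 89.3 (SD, n = 3 each). UGT2B17, a glucuronosyltransferase of steroids, was not detected at 4.78 ± 1.94 (SD, n = 3). The other steps of cholesterol synthesis around CYP51A1 were detected for all 10 measured genes (6 of 7 without suffixed probe sets), among them SQLE at 6783 ± 615, EBP at 2033 ± 435 and LBR at 3505 ± 758 (SD, n = 3 each). TM7SF2, with the largest p of that list, had a mean of 313 ± 93.3 (SD, n = 3). Its limma adjusted p of 0.0196 became 0.215 on leaving out replicate 1 and 0.0599 on leaving out replicate 2.

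**Figure D3:**
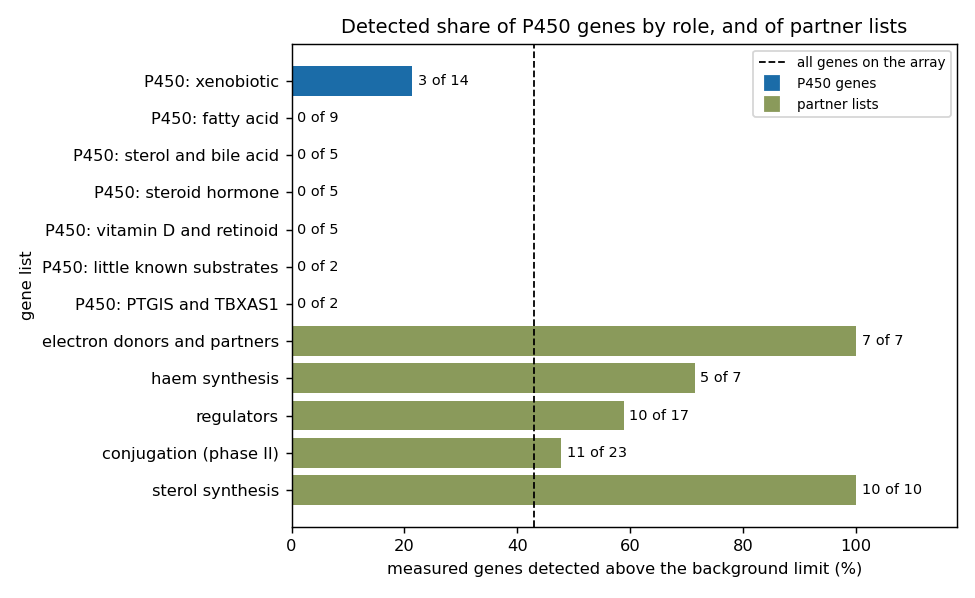
Share of measured genes detected above the background limit (limma adjusted p under 0.05), in percent, for P450 genes by role, for 2 P450 genes under other symbols and for partner lists, with the counts beside the bars. The dashed line marks the 42.9% of all genes on the array, above which lie the 5 lists from electron donors to sterol synthesis and none of the P450 lists.

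The replicate spread of the P450 genes not detected was close to that of all genes not detected. Over the 37 P450 genes not detected the median SD was 0.54 log2 units, against 0.47 over the 6834 genes not detected in all, whose median level was -1.42 log2 units relative to the limit against -1.82 for the P450 genes. Replicate 3 held the highest value in 19 of the 37 (51.4%) and replicate 1 the lowest in 18 (48.6%). Over all genes not detected both shares were 41.2%. Replicate 2 held the highest value in 27.0% of the P450 genes and in 39.0% of all genes not detected, and these shares were not tested. No labelled difference between the cultures was given beyond the replicate number.

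**Figure D4:**
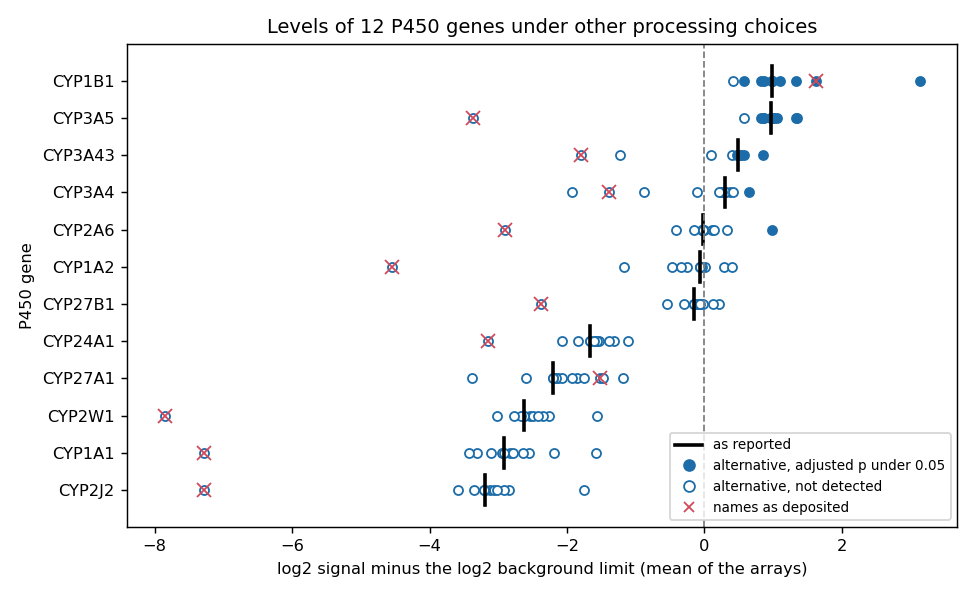
Mean log2 signal minus the background limit of 12 P450 genes as reported (black bars) and under each alternative choice of processing, with filled circles where the adjusted p was under 0.05 and crosses for the names as deposited. CYP1B1 stays above 0 in every setting that gives it a value, and CYP3A5 in all but the deposited names. With the names as deposited or displaced uniformly, the value of CYP1B1 comes from other rows than in the order used. CYP24A1, CYP27A1, CYP2W1, CYP1A1 and CYP2J2 stay below 0 throughout.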

How the data were processed

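Biotin-labelled cRNA from 3 HT-29 cultures was hybridised to Affymetrix arrays. Cells were seeded 24 h before treatment (50000 per cm2, McCoy's 5A with 10% serum, 5% CO2), per the labels' protocols. Per the submitters' processing notes, signals came from Affymetrix Expression Console 1.1 and MAS5. Each deposited value is the linear intensity of a probe set, and the authors had scaled the arrays to 1 level (each array's mean without its extreme 2% at either end was 500.0). Scaling target, background step and presence calls are not given in the sources used here.

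Of 22283 probe sets 6 were empty. The order of names used places 15 unnamed values first, then 100 probe sets from 200000 to 200099, 493 below 200000, 21622 of the rest as the file lists them, and 47 unnamed values at the end. Among uniform displacements of up to 1000 rows either way the best gave r = 0.50, and the highest value elsewhere was 0.25. Values were deposited without log transformation by the authors; log2 was taken here. The 62 unnamed values were left out. Symbols come from the platform annotation (19065 probe sets with 1 symbol used, 1043 with several not used), and all but 12 matched a gene ID in RefSeq of GRCh38.p14.

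No pseudocount was added. The log2 signal minus the limit was fitted by limma 3.58.1 under R 4.3.3 (intercept only, variance trend), a step tested on simulated data. The limit was treated as known. For p-values and intervals, limma combines each gene's spread between these cultures with that of genes of similar signal. They therefore do not measure the spread of 1 gene alone. The number of arrays, 3, limits precision. Named P450 genes are those detected or above the limit on any array, plus a fixed set known from gut or colon tumours. Partner genes named are the 3 of smallest p and the 1 of largest p per list plus key regulators. Genes named beyond this rule, the remaining P450 genes, FECH, UROS and single markers among them, were chosen after their values were seen. The members and lists were chosen with earlier results of these data known.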

Additional observations from a re-analysis of the deposited data

How the results depend on the processing

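Of 40 P450 genes, 3 were detected, and between 1 and 4 under the alternatives. The count was 1 with the limit at the 99th percentile (CYP1B1) and 1 with the median over probe sets (CYP3A5). It was 1 of 31 without suffixed probe sets (CYP3A5), 2 without any 1 replicate and 2 with the names as deposited. Over all 11963 genes 5129 were detected, 4491 with the 99th percentile, 4778 with the median and 698 with the names as deposited. Without replicates 1, 2 and 3 respectively, 4690, 5045 and 5100 were detected. Without suffixed probe sets 2927 of 8369 were. With the names as deposited the share of P450 genes was thus close to that of all genes. Over the 66 measured partner genes, counted here with PTGIS and TBXAS1, 43 were detected. With the names as deposited 7 were, and without suffixed probe sets 24 of 46. CYP1B1 was detected in 11 of 12 alternatives, CYP3A5 in 11 of 13 and CYP3A43 in 4 of 12. The 11 of CYP1B1 include the names as deposited (1.62 log2 units) and the uniform displacement. In both, its values come from other rows than in the order used, so these settings do not test its call under that order. The following changed sign relative to the limit, in log2 units. With the names as deposited CYP3A5 lay at -3.37, CYP3A43 at -1.79 and CYP3A4 at -1.39. With the median over probe sets CYP3A43 lay at -1.23, CYP3A4 at -0.88 and CYP27B1 at 0.13. Without suffixed probe sets CYP3A4 lay at -1.93 and CYP2A6 at 0.11. With the 90th percentile CYP1A2 lay at 0.28, CYP27B1 at 0.21 and CYP2A6 at 0.33, and with the 99th CYP3A4 at -0.10. With 1 uniform displacement of all names CYP1A2 lay at 0.0088 and CYP2A6 at 0.99, CYP2A6 then being detected; CYP1B1, whose block is displaced by 1 row more, lay at 3.13 there. On leaving out 1 replicate CYP1A2 ranged from -0.35 (without replicate 3) to 0.39 (without replicate 2) and CYP2A6 from -0.15 (without replicate 1) to 0.13 (without replicate 3). CYP3A4 was detected with the 90th percentile (0.65, limma adjusted p = 0.0224). The causes of these changes were not tested. Testing each probe set on its own, which was chosen after seeing the data, left 3 genes detected. No paired analysis was possible because all samples belong to 1 group. Signals near the limit of 176 to 209 cannot be told from background with 3 arrays.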
